A study of Mus musculus with 7 samples.

Results

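A set of 10 adhesion genes of vessels and leukocytes, out of 21965 genes in the deposited count table, was followed in contused mouse spinal cord. They were chosen by name as the molecules that hold leukocytes to endothelial cells (ECs) and their partners on the leukocyte: the immunoglobulin-type ligands Icam1, Icam2, Vcam1 and Pecam1, the endothelial selectins Sele and Selp, the selectin ligand Selplg, and the integrin subunits Itga4, Itgal and Itgb2. All 10 were found by Ensembl identifier and all 10 passed the filter on low counts, which left 15743 genes. RNASeq was done on a 5 mm piece of cord from the injury epicenter, taken at day 3 post-injury (dpi 3) after a moderate T9 contusion of 50 kdyn force and 400 to 600 μm displacement in each mouse. The mice were 8 to 10 weeks old. One group was Bmal1-/- (B6.129-Arntltm1Bra/J on C57BL/6, 2 females and 1 male) and the other C57BL/6 WT (C57Bl/6J in the study's methods; 2 females and 2 males). BMAL1 is the clock transcription factor encoded by Arntl. The knockout affects every cell of the animal, so no difference can be assigned to the vessel or to the leukocyte. Only 1 of the 4 WT mice was a littermate of the knockouts, and all 7 mice were injured, so no uninjured level was measured here.

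Leukocytes leave the blood in steps. Selectins on activated ECs first catch passing leukocytes by sugar-bearing ligands such as PSGL-1, and chemokines then switch leukocyte integrins to a form that binds ICAM and VCAM ligands. The cell stops, crawls to a junction and crosses it with help from PECAM-1. E-selectin, ICAM-1 and VCAM-1 are made on demand in inflamed endothelium under NF-κB, whereas ICAM-2 and PECAM-1 are present on resting vessels, and P-selectin is also stored in platelets and in granules of ECs.

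Total counts ran from 38529644 to 44096737 per library, with 1 library per mouse. Levels are given in CPM, in which each count is divided by its TMM-adjusted library total, and differences as log2 fold changes of Bmal1-/- relative to WT with their standard error (SE) from edgeR. A gene was called at a Benjamini-Hochberg adjusted p under 0.05 over all genes tested. The targeted gene went against its label. Arntl reached 24.1, 24.2 and 22.5 CPM in Bmal1-/- replicates 1 to 3, against 14.7, 15.3, 11.9 and 13.4 CPM in WT replicates 1 to 4, a log2 fold change of 0.77 (SE 0.0996, adjusted p = 0.0155 in edgeR). The count covers the whole gene and not the deleted part alone, so it does not check the deletion, and an antisense gene shares 33 exonic bases with Arntl. Transcripts under BMAL1 control did differ between the labelled groups. Nr1d1, a gene BMAL1 activates, was at 5.31 to 7.28 CPM against 29.23 to 36.76 CPM in WT (adjusted p = 0.000456 in edgeR), and Dbp, another, at 7.80 to 8.83 CPM against 25.31 to 39.34 CPM (adjusted p = 0.00328). In other mice at dpi 3, the study's qPCR found no detectable Bmal1, less Nr1d1 and Dbp, and more Cry1 in Bmal1-/- cords. Every direction given here is that of the libraries labelled Bmal1-/-. WT replicate 3 stood apart, at a root mean square log2 distance to the other WT libraries of 0.509 on average. Each remaining WT library averaged 0.366 to 0.380 to the rest of its group, WT replicate 3 included. WT replicate 3 had the highest level of the 7 libraries in 33.9% of the genes tested and in 9 of the 10 adhesion genes. Results are therefore given with and without it.

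None of the 10 adhesion genes was called, where 1.57% of all genes tested were (247 of 15743). Fold changes were below 0 for 9 of the 10 and above 0 for Vcam1, with a median of -0.44, where 51.1% of all genes were below 0 with a median of -0.0057. At an unadjusted p under 0.05 there were 2 (Icam2 and Selp), where 20.9% of all genes were. The same 2 had all 3 Bmal1-/- values under all 4 WT values, where 13.5% of all genes did. DESeq2 called 1 of the 10, Selp, where that test called 9.61% of all genes, and limma-voom called 0, with 1 at an unadjusted p under 0.05. Without WT replicate 3 the median of the 10 was -0.20, with 8 below 0, and edgeR called Vcam1 as higher, where 1.86% of all genes were then called higher and 2.8% lower. The groups then did not overlap for Icam2, Vcam1 and Selp, 3 of the 10, as for 30.8% of all genes.

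**Figure D1:**
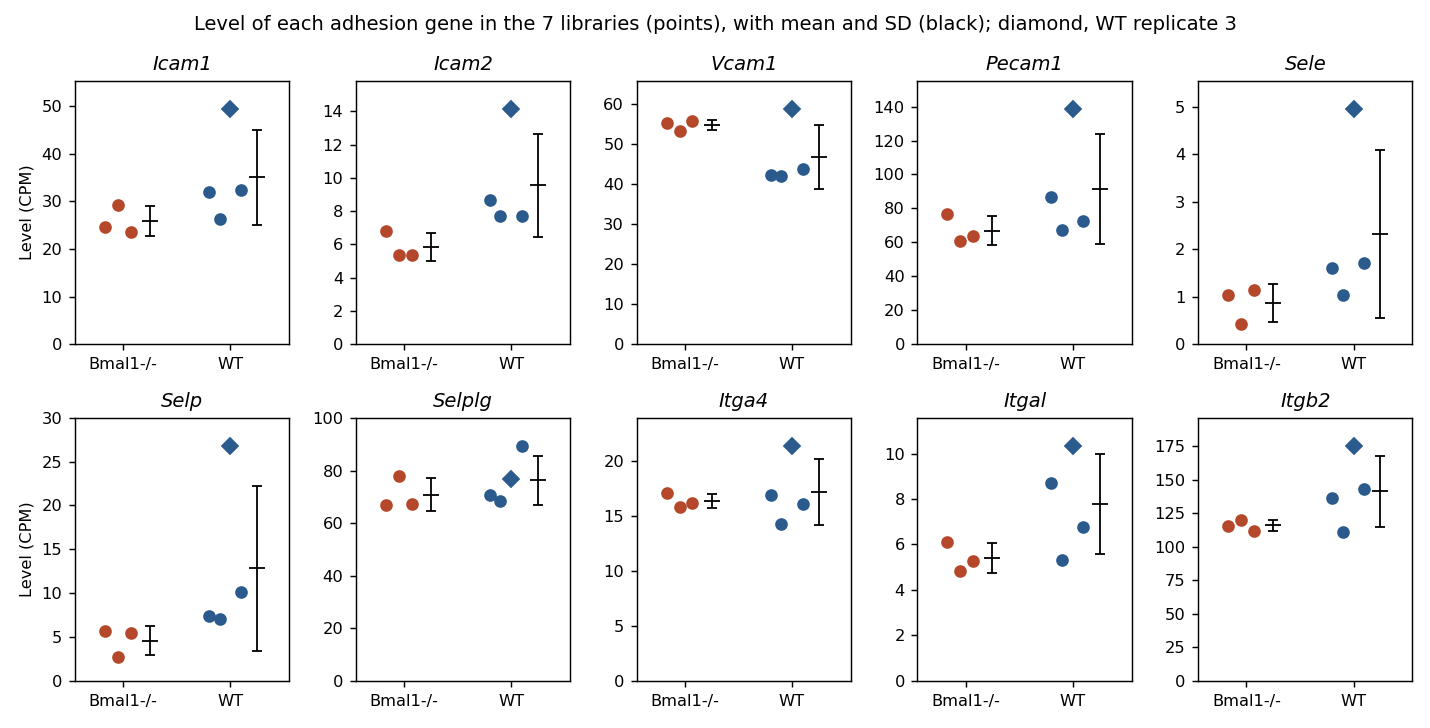
Level of each adhesion gene in CPM (vertical axis, from 0, with its own range in each panel) for 3 libraries labelled Bmal1-/- (red points) and 4 WT libraries (blue points), with the group mean and SD in black. WT replicate 3, drawn as a diamond, is the highest point in 9 of the 10 panels; Vcam1 is the gene whose other WT libraries all lie under the Bmal1-/- ones.

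Upstream sequence was at hand for Icam1, Sele, Selp and Itga4, whose 250 bases before the RefSeq start (GRCm38.p6, plus strand) are printed because E-selectin and ICAM-1 are textbook NF-κB targets and BMAL1 acts through the E-box CACGTG. No window was matched for Icam2, Vcam1, Pecam1, Selplg, Itgal or Itgb2. Capitals mark GGNNNTTCC, a loose NF-κB site pattern searched on both strands, and the TATA box TATAAA. The positions are chr9:21015690-21015939 for Icam1, chr1:164047984-164048233 for Sele, chr1:164115014-164115263 for Selp and chr2:79255176-79255425 for Itga4.
Icam1: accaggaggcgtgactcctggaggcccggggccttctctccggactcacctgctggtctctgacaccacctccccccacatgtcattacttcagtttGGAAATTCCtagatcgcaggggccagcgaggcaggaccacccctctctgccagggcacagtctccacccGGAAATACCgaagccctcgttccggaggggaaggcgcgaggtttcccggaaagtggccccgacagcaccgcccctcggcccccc
Sele: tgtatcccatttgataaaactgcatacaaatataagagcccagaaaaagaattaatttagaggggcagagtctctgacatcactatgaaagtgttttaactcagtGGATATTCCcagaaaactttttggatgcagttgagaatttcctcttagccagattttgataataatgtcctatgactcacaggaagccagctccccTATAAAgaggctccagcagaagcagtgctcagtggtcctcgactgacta
Selp: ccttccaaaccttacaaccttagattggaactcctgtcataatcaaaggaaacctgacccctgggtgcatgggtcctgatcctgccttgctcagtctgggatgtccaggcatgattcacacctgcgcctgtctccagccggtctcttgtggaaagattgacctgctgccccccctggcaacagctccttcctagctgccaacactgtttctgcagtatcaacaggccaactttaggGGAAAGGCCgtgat
Itga4: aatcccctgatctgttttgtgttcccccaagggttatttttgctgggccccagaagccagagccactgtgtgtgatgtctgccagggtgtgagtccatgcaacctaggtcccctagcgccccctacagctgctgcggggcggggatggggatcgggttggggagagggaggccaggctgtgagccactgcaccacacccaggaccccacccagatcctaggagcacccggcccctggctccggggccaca
CACGTG was in none of the 4, and in 6.02% of 32851 windows of the same length. GGNNNTTCC, found in 15.7% of those windows, lay 145 to 137 bases before the start of Sele and 14 to 6 bases before that of Selp, there on the minus strand. Icam1 held it at 153 to 145 bases, read on both strands, and at 84 to 76 bases on the minus strand, and Itga4 held none. TATAAA was in Sele, 49 to 44 bases before the start, and in 12.4% of all windows. These are matches of letters in short windows and say nothing of binding in this tissue.

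Icam1 encodes ICAM-1, the cytokine-induced ligand of the integrins LFA-1 and Mac-1. The gene (ENSMUSG00000037405) lies on chr9:21015985-21028817, plus strand, 0.555 kb before Icam4, and an antisense gene shares 511 exonic bases with it. Icam1 was at 24.7, 29.3 and 23.5 CPM in Bmal1-/- replicates 1 to 3 and at 32.1, 26.4, 49.4 and 32.3 CPM in WT replicates 1 to 4. The groups overlapped, since Bmal1-/- replicate 2 was above WT replicate 2. The means were 25.9 ± 3.07 (SD, n = 3) and 35.0 ± 9.93 CPM (SD, n = 4), and its log2 fold change of -0.44 (SE 0.21, 95% interval -0.93 to 0.05) did not pass (adjusted p = 0.271 in edgeR). Without WT replicate 3 it was -0.23 (SE 0.11).

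Icam2, encoding ICAM-2, a ligand of LFA-1 on resting endothelium and platelets, had the third lowest fold change after Selp and Sele. It lies on chr11:106377656-106388075, minus strand (ENSMUSG00000001029), 266 kb from Pecam1. Icam2 was at 6.81, 5.34 and 5.38 CPM in Bmal1-/- and at 8.67, 7.71, 14.1 and 7.69 CPM in WT. The groups did not overlap, and 3 WT libraries sat close together with replicate 3 well above them. The log2 fold change was -0.71 (SE 0.24, 95% interval -1.28 to -0.14, unadjusted p = 0.0216 and adjusted p = 0.182 in edgeR). Without WT replicate 3 the groups were still apart at a log2 fold change of -0.46 (SE 0.13, adjusted p = 0.0988 in edgeR), so the size of the difference shrank and its call did not change.

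Vcam1 encodes VCAM-1, the ligand of the α4 integrins, and was the one adhesion gene with a positive fold change. It lies on chr3:116109949-116129688, minus strand (ENSMUSG00000027962), with 61 exonic bases shared with an antisense gene. Vcam1 was at 55.3, 53.3 and 55.7 CPM in Bmal1-/- and at 42.3, 42.1, 58.7 and 43.9 CPM in WT. The Bmal1-/- libraries lay within a narrow range above 3 WT libraries and under WT replicate 3, so the groups overlapped by that library alone. With all 7 libraries the log2 fold change was 0.23 (SE 0.12, 95% interval -0.06 to 0.52, adjusted p = 0.312 in edgeR). Without WT replicate 3 the WT mean was 42.8 ± 0.939 CPM (SD, n = 3) against 54.8 ± 1.28 (SD, n = 3), with an estimated log2 fold change of 0.36 (SE 0.048, adjusted p = 0.0129 in edgeR) that was called. Without any other library it was 0.17 to 0.25 and was not called. VCAM-1 is also made by cells other than ECs, among them astrocytes and mural cells. Markers of astrocytes summed to 14011 to 16701 CPM in Bmal1-/- and 9441 to 13489 CPM in WT, with 4 of 5 genes higher and none called or at 0, and pericyte markers to 341 to 402 and 412 to 475 CPM, with 3 of 6 genes higher and none called or at 0. Their part in the Vcam1 difference was not tested.

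Pecam1 encodes PECAM-1 (CD31), which joins ECs to each other and to crossing leukocytes and is carried by platelets and leukocytes too. It lies on chr11:106654217-106750628, minus strand (ENSMUSG00000020717). Pecam1 was at 76.7, 60.6 and 63.7 CPM in Bmal1-/- and at 86.9, 67.5, 138.4 and 72.6 CPM in WT. The groups overlapped, and WT replicate 3 was 1.83 times the mean of the other WT libraries. The log2 fold change was -0.45 (SE 0.25, 95% interval -1.04 to 0.14, adjusted p = 0.324 in edgeR), and -0.18 (SE 0.12) without that library.

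The selectin genes had the largest fold changes and the widest spread. Sele and Selp lie on chromosome 1 in the same orientation, 57.6 kb apart. Sele (ENSMUSG00000026582, chr1:164048234-164057677, plus strand) encodes E-selectin, made by activated ECs. It was counted 41, 18 and 45 times in Bmal1-/- and 63, 40, 198 and 68 times in WT, or at 1.04, 0.42 and 1.14 CPM and 1.61, 1.03, 4.94 and 1.71 CPM. Bmal1-/- replicate 2 was the lowest and WT replicate 3 the highest by far, and the groups overlapped at WT replicate 2. The log2 fold change was -1.42 (SE 0.61, 95% interval -2.86 to 0.01, adjusted p = 0.242 in edgeR), and -0.75 (SE 0.39) without WT replicate 3.

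Selp (ENSMUSG00000026580, chr1:164115264-164150026, plus strand) encodes P-selectin, and antisense transcripts share 186 and 438 exonic bases with it. It was at 5.64, 2.69 and 5.46 CPM in Bmal1-/- and at 7.35, 7.09, 26.8 and 10.1 CPM in WT. All Bmal1-/- values lay under all WT values, and WT replicate 3 was 3.27 times the mean of the other WT libraries. The means were 4.60 ± 1.65 (SD, n = 3) and 12.8 ± 9.40 CPM (SD, n = 4), with an estimated log2 fold change of -1.48 (SE 0.55, 95% interval -2.76 to -0.20, unadjusted p = 0.0288 and adjusted p = 0.198 in edgeR). DESeq2 called it (log2 fold change -1.48, adjusted p = 0.0471), with 5.81% of all genes called lower by that test. Without WT replicate 3 the groups stayed apart at -0.83 (SE 0.29, adjusted p = 0.151 in edgeR), a fold change of 0.561 in place of 0.358. P-selectin is also a platelet protein. Platelet markers summed to 17.1 to 23.9 CPM in Bmal1-/- and 23.9 to 72.8 CPM in WT, with 5 of 5 tested genes lower, none called and Gp6 at or near 0. WT replicate 3 had 2.43 times the mean of the other WT libraries. Of the platelet markers, Gp1bb shares 1902 exonic bases with Sept5 on the same strand. The part of platelet RNA in the levels of Selp was not tested.

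Selplg encodes PSGL-1, the selectin ligand of leukocytes, and is also expressed by microglia. It lies on chr5:113818536-113832644, minus strand (ENSMUSG00000048163). Selplg was at 66.9, 78.1 and 67.6 CPM in Bmal1-/- and at 70.7, 68.6, 76.9 and 89.5 CPM in WT. It was the one adhesion gene whose highest library was not WT replicate 3 but WT replicate 4. The groups overlapped, with a log2 fold change of -0.11 (SE 0.11, 95% interval -0.36 to 0.14, adjusted p = 0.542 in edgeR) and of -0.02 without WT replicate 4.

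None of the 3 integrin subunit genes was called. Itga4, the α4 chain of the VCAM-1 receptor VLA-4 (ENSMUSG00000027009, chr2:79255426-79333123, plus strand), shares 1124 exonic bases with Cerkl on the opposite strand. It was at 17.1, 15.8 and 16.2 CPM in Bmal1-/- and at 17.0, 14.3, 21.4 and 16.2 CPM in WT. The groups overlapped throughout, and the log2 fold change was -0.07 (SE 0.14, 95% interval -0.39 to 0.25, adjusted p = 0.755 in edgeR). Its sign depended on WT replicate 3, without which it was 0.05 (SE 0.084).

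Itgal, the αL chain of LFA-1 and the partner of Itgb2 in binding ICAM-1 and ICAM-2, lies on chr7:127296260-127335138, plus strand (ENSMUSG00000030830). That is 14.0 Mb from Arntl, and whether DNA from the 129 strain reaches it in the knockouts was not tested. Itgal was at 6.13, 4.85 and 5.25 CPM in Bmal1-/- and at 8.70, 5.32, 10.3 and 6.78 CPM in WT. Only WT replicate 2 fell within the range of the Bmal1-/- libraries. The log2 fold change was -0.53 (SE 0.23, 95% interval -1.07 to 0.02, adjusted p = 0.250 in edgeR), and -0.36 (SE 0.19) without WT replicate 3.

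Itgb2, the β2 chain CD18 shared by LFA-1, Mac-1 and the other leukocyte β2 integrins, lies on chr10:77530252-77565708, plus strand (ENSMUSG00000000290). Itgb2 was at 115.8, 120.0 and 111.8 CPM in Bmal1-/- and at 136.6, 111.0, 175.1 and 143.0 CPM in WT. WT replicate 2 was the lowest of the 7 libraries and the other WT libraries were the 3 highest. The means of 115.9 ± 4.14 (SD, n = 3) and 141.4 ± 26.4 CPM (SD, n = 4) corresponded to an estimated log2 fold change of -0.29 (SE 0.14, 95% interval -0.62 to 0.04, adjusted p = 0.280 in edgeR), and of -0.17 (SE 0.096) without WT replicate 3.

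**Figure D2:**
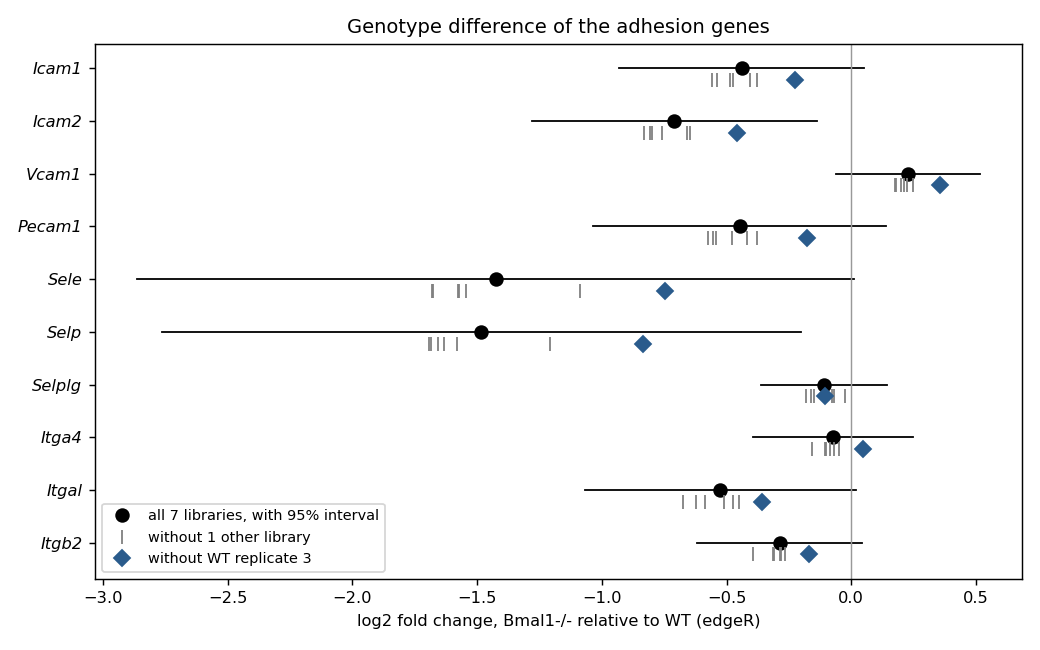
Log2 fold change of Bmal1-/- relative to WT (horizontal axis) for each adhesion gene, with all 7 libraries (black points, lines for the 95% interval), without WT replicate 3 (blue diamonds) and without each other library (grey ticks). The intervals of Icam2 and Selp exclude 0, the diamonds of 8 genes lie below 0, and that of Vcam1 lies at 0.36.

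Levels of different genes were compared per kb of exon. The integrin chain Itgb2 had the highest median over the 7 libraries, 39.3 CPM per kb, followed by Selplg at 16.5 and Pecam1 at 11.7. Icam1 was at 6.73, Vcam1 at 6.01 and Icam2 at 4.04 CPM per kb. Selp was at 1.61, Itga4 at 1.16, Itgal at 0.932 and Sele at 0.392 CPM per kb. Among neighbours in this order, only the ranges of Itgb2 (36.4 to 57.4) and Selplg (15.7 to 20.95) did not overlap. The ranges of the other neighbours overlapped, while those of genes further apart in the order can be separate, such as Selplg and Icam1 (5.40 to 11.3). Ranges over all libraries do not compare genes within a library. Within each library Pecam1 lay above Icam1 and Icam2 above Selp. In WT replicate 3, where all of these were highest, they were at 22.2 and 11.3, and at 7.42 and 6.07 CPM per kb. Both genes at the head of the order are carried by most myeloid cells. The β2 chain was far above the αL chain per kb, and αL is one of several partners of β2.

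**Figure D3:**
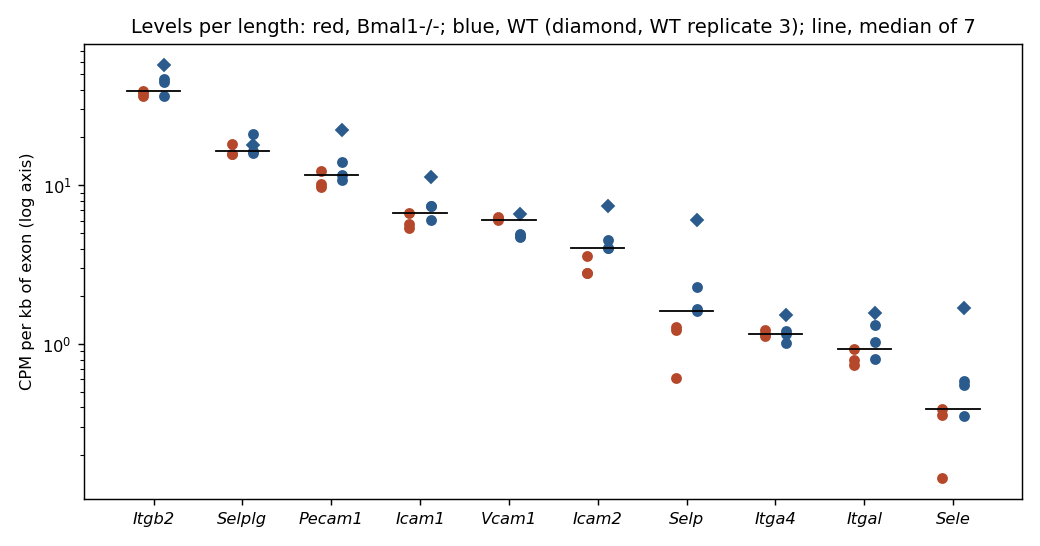
Level per length in CPM per kb of exon (vertical log axis) of the adhesion genes in order of their median over 7 libraries (black lines), in libraries labelled Bmal1-/- (red) and WT (blue, with WT replicate 3 as a diamond). Itgb2 lies above all others and Sele has the lowest median, 0.392, with the points of neighbouring genes overlapping except between Itgb2 and Selplg.

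The piece of cord holds many cell types, and in bulk RNA fewer cells of a type and less RNA per cell cannot be told apart. A list of 13 EC markers without the adhesion genes summed to 665 to 720 CPM in Bmal1-/- and to 741 to 1104 CPM in WT. All 13 were detected, 11 were lower and 1 was called (Cdh5, which is also counted among the cascade genes). The sums did not overlap between groups, and WT replicate 3 had 1.44 times the mean of the other WT libraries. Pan-leukocyte markers summed to 396 to 455 and 391 to 663 CPM, with 4 of 4 lower, none called and none at 0, and neutrophil markers to 77.9 to 104 and 72.1 to 169 CPM, with 8 of 9 lower, none called and none at 0. Macrophage markers summed to 2247 to 3020 and 2202 to 4445 CPM (8 of 10 lower, none called or at 0), and microglia markers to 981 to 1136 and 987 to 1278 CPM (5 of 7 lower, none called or at 0). WT replicate 3 had 1.70 times the mean of the other WT libraries for neutrophils and 1.73 times for macrophages. It was not high for every list, at 0.410 times that mean for neuron, 0.755 times for astrocyte and 0.338 times for Schwann cell markers. Lymphocyte markers were near the limit of detection, at 0.533 to 1.21 and 0.874 to 2.37 CPM in sum with both tested genes lower, none called, and Cd3e, Cd3d and Ncr1 at or near 0, so the leukocyte genes were measured in tissue with few counts of T and NK cell transcripts. Skeletal muscle markers also differed, at 3.46 to 4.47 and 36.0 to 50.5 CPM (5 of 5 lower, 4 of them called, where 0.915% of all genes were called lower). Schwann cell markers were at 1.75 to 8.45 and 17.6 to 228 CPM (2 of 2 tested genes lower, none called). Whether these 2 sets of transcripts came from tissue next to the cord was not tested. The part of any of these marker lists in the adhesion genes was not tested.

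**Figure D4:**
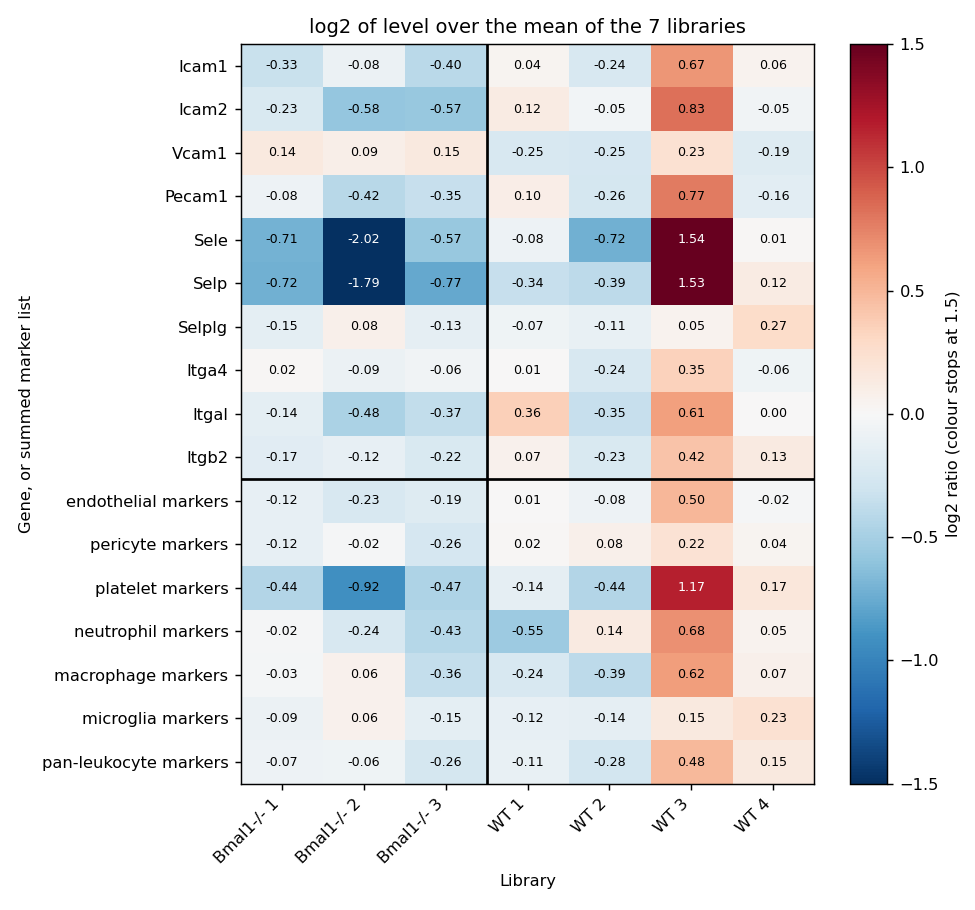
Log2 ratio of each library (columns) to the mean of the 7 libraries, for the adhesion genes (upper rows) and for summed marker lists (lower rows), in red where above the mean and blue where below. The column of WT replicate 3 is above the mean in every row shown, by 1.54 for Sele, 1.53 for Selp and 1.17 for the platelet markers. Neuron, astrocyte and Schwann cell markers, for which that library was low, are not drawn.

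Divided by a marker sum, Vcam1 joined Icam2 and Selp as a gene whose groups did not overlap. Relative to the summed EC markers, Vcam1 was at 76.9, 80.2 and 81.3 per 1000 in Bmal1-/- and at 53.7, 56.8, 53.2 and 56.8 per 1000 in WT, and WT replicate 3 was no longer above the other WT libraries. On this scale all Bmal1-/- values lay above all WT values in 38.1% of the genes tested, so a gap in that direction is common. Icam2 was at 9.46, 8.03 and 7.86 per 1000 in Bmal1-/- and at 10.999, 10.4, 12.8 and 9.95 per 1000 in WT. Selp was at 7.84, 4.05 and 7.97 per 1000 in Bmal1-/- and at 9.32, 9.57, 24.3 and 13.1 per 1000 in WT. Both stayed lower in every Bmal1-/- library than in any WT library, as did 3.55% of the genes tested. Icam1, Pecam1 and Sele overlapped between groups, with log2 ratios of the means of -0.11, -0.12 and -1.02. Relative to the summed pan-leukocyte markers, the 4 leukocyte genes overlapped, where 5.56% of all genes lay above and 5.04% below WT without overlap. The log2 ratios of the means were 0.07 for Selplg, 0.13 for Itga4, -0.31 for Itgal and -0.08 for Itgb2. This scaling was chosen after the values were seen and carries no test.

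With all libraries the sexes gave the same sign for 8 of the 10 genes. Among females (2 against 2), Selp differed by -0.79, Icam2 by -0.43 and Vcam1 by 0.36 on the log2 scale. Between the 1 male Bmal1-/- library and the 2 male WT libraries the differences were -1.76, -1.02 and 0.12, and -0.89, -0.52 and 0.34 without WT replicate 3, a male. Selplg was at 0.06 in females and -0.30 in males, and Itga4 at 0.07 and -0.21, the latter being 0.0024 without WT replicate 3. Selplg and Itga4 were also those with the smallest fold changes over all libraries. The adjusted p for an interaction of genotype and sex in edgeR was 0.406 to 0.730 over the 10 genes, and 0 of all genes passed, with 1934 at an unadjusted p under 0.05. There was 1 male Bmal1-/- library, whose spread is assumed to be that of the other groups, so this test had little power and does not show that the sexes were alike.

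Each adhesion gene was also set beside the gene whose log2 level, centred on its mean over the 7 libraries, was nearest to its own among 15742 others. The root mean square difference was 0.023 for Itga4 with Phf7, 0.025 for Vcam1 with Acod1 and 0.040 for Itgb2 with Arid3a. It was 0.050 for Icam1 with Pnp2, 0.056 for Icam2 with Klra2 and 0.058 for Selplg with B230307C23Rik. Pecam1 with Tmem252 and Itgal with Cd244a were each at 0.071. The nearest gene to Sele was the chemokine gene Pf4, which is among the platelet markers, at 0.106, with Hmox1 next at 0.192. The nearest to Selp was Sele itself, at 0.212. The profiles of both selectins share the high level in WT replicate 3 and the low one in Bmal1-/- replicate 2.

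Further genes of capture, arrest and transmigration were taken from a list of 65, of which 64 were in the table (Cd99 was not matched) and 62 passed the filter, all but Icam4 and Madcam1. Of the 62, 48 had a fold change below 0 and 14 above, with a median of -0.24, where 51.1% of all genes were below 0. The test called 2 as lower and none as higher, where 0.915% of all genes were called lower and 0.654% higher. At an unadjusted p under 0.05 there were 16 of 62, where 20.9% of all genes were. Groups did not overlap for 15, as for 26.9% of all genes. WT replicate 3 was the highest library in 45 of the 62, where it was in 33.9% of all genes. Without it 6 were called lower and 2 higher, where that fit called 2.8% of all genes lower and 1.86% higher.

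St3gal4, a sialyltransferase that caps selectin ligands, fell in Bmal1-/-. It was at 30.4, 33.2 and 26.7 CPM in Bmal1-/- and at 46.5, 47.7, 55.5 and 51.6 CPM in WT, with groups well apart. Its log2 fold change was -0.74 (SE 0.098, adjusted p = 0.0168 in edgeR), and was -0.82 to -0.67 with each library left out, where the call was lost without Bmal1-/- replicate 1, Bmal1-/- replicate 3 or WT replicate 4. A transcript on the opposite strand shares 412 exonic bases with it. The 6 other genes of selectin ligand glycosylation, among them Fut7 and Gcnt1, which build the sugars that selectins bind, were not called, with fold changes from -0.48 for B4galt1 to -0.0035 for Fut7.

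Cdh5, encoding the junction protein VE-cadherin that leukocytes pass between ECs, was also called lower. It was at 49.0, 50.3 and 42.6 CPM in Bmal1-/- and at 89.4, 70.7, 106.7 and 74.3 CPM in WT, again with no overlap. The log2 fold change was -0.85 (SE 0.15, adjusted p = 0.0466 in edgeR). The call held in 1 of 7 fits that left out a library, the one without WT replicate 3. It held with DESeq2 (adjusted p = 4.7e-05) and was lost with limma-voom (adjusted p = 0.0504). In edgeR it was also lost with upper-quartile normalization, sex as a covariate and a replicate block (adjusted p = 0.0544, 0.0912 and 0.346). Of the 13 other endothelial adhesion and transmigration genes tested, none was called. Thy1, which can bind leukocyte integrins and is abundant in neurons, was at 445.9, 403.5 and 483.3 CPM against 367.9, 383.2, 255.3 and 312.2 CPM (log2 fold change 0.43, adjusted p = 0.184 in edgeR). Neuron markers summed to 1755 to 2400 CPM in Bmal1-/- and to 617 to 1717 CPM in WT, with 5 of 5 higher, none called and none at 0, and their part in Thy1 was not tested.

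Of the 7 selectin capture partners tested, 6 were below 0, where 51.1% of all genes were, and none was called by edgeR. Cd34, Podxl and Cd44, whose products can present ligands to selectins, were the 3 with each Bmal1-/- library under each WT library. That gap was seen in 13.5% of all genes. Cd34 was at 74.1, 73.1 and 59.1 CPM against 94.2, 98.8, 139.6 and 107.6 CPM (log2 fold change -0.68, adjusted p = 0.0811 in edgeR). Podxl had a log2 fold change of -0.66 (adjusted p = 0.126) and Cd44 one of -0.57 (adjusted p = 0.127). The other leukocyte integrin chains went both ways, with 5 of 8 below 0 and none called by edgeR. Itgav, the αv chain, was at 410.7, 375.6 and 340.5 CPM in Bmal1-/- and 222.0, 212.7, 281.7 and 256.7 CPM in WT, all higher (log2 fold change 0.63, adjusted p = 0.0560 in edgeR). Itgav passed without WT replicate 3 (0.70, adjusted p = 0.0146) and with DESeq2, and it is not particular to leukocytes. Itgad, the αD chain, was higher by 1.09 (adjusted p = 0.0763) at a low level, 1.497 to 1.694 against 0.566 to 1.03 CPM. It lies 14.8 Mb from Arntl and shares exonic bases with genes on both strands. Itgb3 and Itgb7, which pair with αv and with α4, had fold changes of -0.61 (adjusted p = 0.109) and -0.76 (adjusted p = 0.187) in edgeR. DESeq2 also called Cd34, Podxl, Cd44 and Itgb3 as lower (adjusted p = 0.00252, 0.0163, 0.0172 and 0.0124) and Itgad as higher (0.00418). It did not call Itgb7, and it called 9.61% of all genes. Without WT replicate 3, edgeR called Cd34, Podxl and Itgb3 (adjusted p = 0.0296, 0.0288 and 0.0288). Cd44, Itgad and Itgb7 were then not called. The cascade genes named here that edgeR did not call were picked among those whose groups did not overlap, so that gap is no further result.

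Of 12 genes of the inducing cytokine signal, such as Tnf, Il1b and the NF-κB subunits, none was called by edgeR. Of these, 10 were below 0, where 51.1% of all genes were. WT replicate 3 was the highest library in all 12, as it was in 33.9% of all genes. Irf1, an interferon-responsive factor, was at 14.8, 16.8 and 12.2 CPM against 19.9, 19.2, 24.9 and 20.7 CPM (log2 fold change -0.53, adjusted p = 0.111 in edgeR). Il1r1, the interleukin-1 receptor of ECs, had a fold change of -0.62 (adjusted p = 0.150 in edgeR). DESeq2 called Irf1 and Il1r1 as lower (adjusted p = 0.0124 and 0.0359), where that test called 5.81% of all genes lower. Without WT replicate 3, edgeR called neither. None of the 9 genes of integrin activation, such as Tln1 and Fermt3, and none of the 5 that anchor the ligands in the EC, such as Ezr and Msn, was called, with fold changes from -0.42 to 0.45 and from -0.34 to 0.03.

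**Figure D5:**
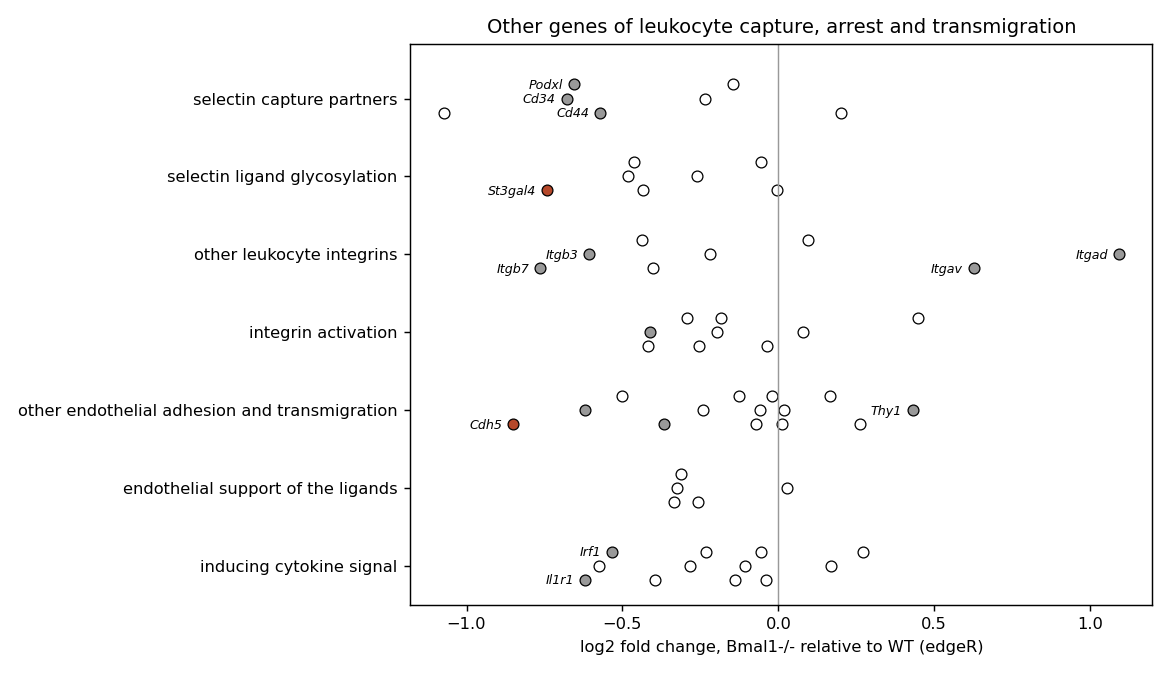
Log2 fold change of Bmal1-/- relative to WT (horizontal axis) of 62 further genes of leukocyte capture, arrest and transmigration, in 7 groups (rows). Red points are the called genes St3gal4 and Cdh5, grey points are genes whose groups do not overlap and white points are the rest; labels stand to the left of the named genes, and 48 points lie below 0.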

How the data were processed

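RNASeq was made from 7 contused cords, 1 library per mouse and none pooled. The authors prepared stranded poly-A libraries, checked reads with FastQC (0.10.1), aligned them with TopHat2 and assigned them to genes of GRCm38 with HTSeq (0.10.0), and the deposited values are whole-number raw counts. The annotation release and strand setting of the counting are not given in the sources used here, so genes overlapped on either strand are uncertain. Genes were filtered with filterByExpr, scaled by TMM, and compared between genotypes by the quasi-likelihood F test of edgeR (version 4.0.16, R 4.3.3). DESeq2 1.42.0, limma-voom (limma 3.58.1), other scalings and filters, sex as a covariate, a block on replicate number and the omission of each library were alternatives. The pipeline was tested on simulated data.

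The adhesion genes, the lists and the motif letters were chosen with earlier results of these data known. Named were all 10 adhesion genes, Arntl, cascade genes with an adjusted p under 0.05, and the 10 others with the smallest p among those whose groups did not overlap. Gene positions, exonic lengths and overlaps came from GENCODE release M21 on GRCm38, which matched 21939 of 21965 identifiers, and the upstream windows from RefSeq (GRCm38.p6). Spread between mice, with a common dispersion of 0.0342, limits the precision more than depth, and counting error was largest for Sele, which had as few as 18 counts. Scaled levels relative to marker sums were added after the data were seen. Figures were drawn with matplotlib 3.10.9.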

Additional observations from a re-analysis of the deposited data

Results flagged for a closer look

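In 6 of 23 genes tested in the 4 WT libraries, WT replicate 3 lay further from the others than Dixon's 95% critical ratio allows. The share of all genes so flagged was not computed, and the cascade genes among the 23 were picked in these same libraries. The genes share that library and are not independent. Icam2 was at 14.1 CPM in it and at 7.69 to 8.67 CPM in the other WT libraries. Vcam1 was at 58.7 CPM against 42.1 to 43.9 CPM, and Selp at 26.8 CPM against 7.09 to 10.1 CPM. Of the cascade genes, Podxl was at 171.3 CPM against 107.6 to 114.0 CPM, Il1r1 at 48.1 CPM against 30.0 to 33.0 CPM, and Itgb7 at 10.7 CPM against 5.75 to 6.56 CPM.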

How the results depend on the processing

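Of the adhesion genes, DESeq2 called 1 (Selp), and 0 to 1 were called with each library left out, the 1 being Vcam1 without WT replicate 3. The cascade list had 10 called genes with DESeq2 (8 lower and 2 higher). It had 1, St3gal4, with limma-voom, with upper-quartile normalization or with sex as a covariate. With each library left out 0 to 8 were called, the most without WT replicate 3. Over all genes DESeq2 called 1513 in place of 247, and 57 to 730 were called with each library left out. With a replicate block no gene was called over all genes (0, with 1582 at an unadjusted p under 0.05 in edgeR), in the cascade list (0, with 12) or among the adhesion genes (0). The deviations of same-numbered libraries had correlations of -0.22, 0.15 and -0.40 for replicates 1 to 3. So few values cannot show whether the mice were paired. The labels state no pairing, though replicates 1 and 2 were female and replicate 3 male in both groups. The log2 fold change of Itga4 was -0.16 to 0.049 with each library left out, the highest without WT replicate 3, and 0.13 relative to the pan-leukocyte markers, where Selplg was at 0.071, against -0.07 and -0.11 with all libraries. The cause of these shifts was not tested. RLE scaling and the other filters on low counts changed no call of the 10 adhesion genes. With 3 against 4 mice, the 95% intervals of 8 of the 10 adhesion genes include 0.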
